A study of Mus musculus with 46 samples.

Results

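The comparison described here is that of white matter (WM) repopulating myeloid cells with control microglia 24 hr after lipopolysaccharide (LPS), a component of the bacterial outer membrane that sets off an innate immune response. The members are the 8 samples whose titles name the 24 hr time point, 4 labelled AltRepop_24hr and 4 labelled ControlAltRepop_24hr, of 46 samples in the whole series. The mice were 2-month-old male C57BL/6 animals. WM repopulating animals had eaten chow with PLX3397 at 600 ppm for 14 days and then a drug-free diet for 28 days, and control animals had received vehicle. PLX3397 blocks CSF1R, a receptor whose signal keeps microglia alive. Both groups then received LPS at 0.33 mg/kg by intraperitoneal injection 24 hr before collection, so that LPS itself is shared by the groups compared. CD11b+CD45int cells were sorted from whole brain hemispheres, not from white matter, and the labels do not tie libraries to animals, so that p-values measure the spread between these libraries. The same table holds 2 further time points, 0 hr (3 control and 4 WM repopulating libraries, no LPS) and 6 hr (5 control and 4 WM repopulating libraries), whose differences are set beside those at 24 hr.

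Microglia are the resident macrophages of the brain. When their survival signal is removed and then restored the brain is refilled by dividing cells, and in the model used here the returning cells appear first in white matter and near the ventricles. After LPS, microglia induce cytokines, chemokines and acute stress genes within hours, and in the following day may enter the cell cycle. The comparison asks how the returned cells differ from undisturbed microglia a day after LPS.

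Values are FPKM, a fragment count scaled to transcript length and library size. Steps in the low values gave 6105514 (control replicate 4) to 10379745 reads in genes per library (WM repopulating replicate 1), and at 24 hr 1 read on a gene of 2 kb was worth 0.0482 to 0.0819 FPKM. No 2 libraries held identical values. At 24 hr 1 library stood apart: control replicate 4 correlated with the other 24 hr libraries at 0.924 to 0.949 (Pearson's r of log2(FPKM + 1) across genes), against 0.959 to 0.985 among the other 7, and listed 1266 genes at 0 against 208 to 554. Against the other control libraries its median deviation was 0.26 log2 units in the fifth of genes with the lowest GC content and -0.41 in the fifth with the highest. Each result that follows is therefore also given without control replicate 4 where that ended a call or moved a count by more than 1.5 times. Of the libraries from other times that share in the estimate of the spread, control replicate 2 at 6 hr stood apart in inflammatory genes, with 35123 FPKM summed over 43 NF-kB targets, cytokines and inflammasome genes against 4875 to 10939 FPKM in the other 4 controls at 6 hr. Results that turn on it are also given from a fit without it, which was chosen after seeing the data. The defining microglial genes were present in all libraries of the 24 hr comparison: there P2ry12 was at 379 to 782 FPKM and Sall1 at 36.5 to 49.1 FPKM.

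For WM repopulating vs control at 24 hr LPS, of 12684 genes tested, 213 were higher (1.68%) and 290 lower (2.29%) in WM repopulating cells (limma, Benjamini-Hochberg adjusted p under 0.05). Without control replicate 4 the counts were 172 (1.36%) and 191 (1.51%), and 127 of the higher and 164 of the lower genes were called in both fits, all 503 genes keeping their sign. Without WM repopulating replicate 2 the counts were 114 higher and 177 lower, without WM repopulating replicate 3 they were 115 and 203, and with only the 24 hr groups fitted they were 103 and 152. Without the 6 hr control replicate 2 they were 306 (2.41%) and 375 (2.96%), with all 503 genes still called and 178 more. With library weights more genes were called than in any of these fits, as given in the section on processing. The 4 WM libraries lay wholly above the 4 control libraries for 5.76% of genes tested and wholly below for 6.32%. The median log2 difference of all genes was 0.02, and changes are given on the log2(FPKM + 1) scale, which understates the change of genes at low levels. Among the lower genes the spliceosomal RNAs Rnu1a1 and Rnu12 and the genes Prok2 and Lig1 had large differences, and the highest were Axl, Scimp, P2ry14 and Egr1.

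**Figure D1:**
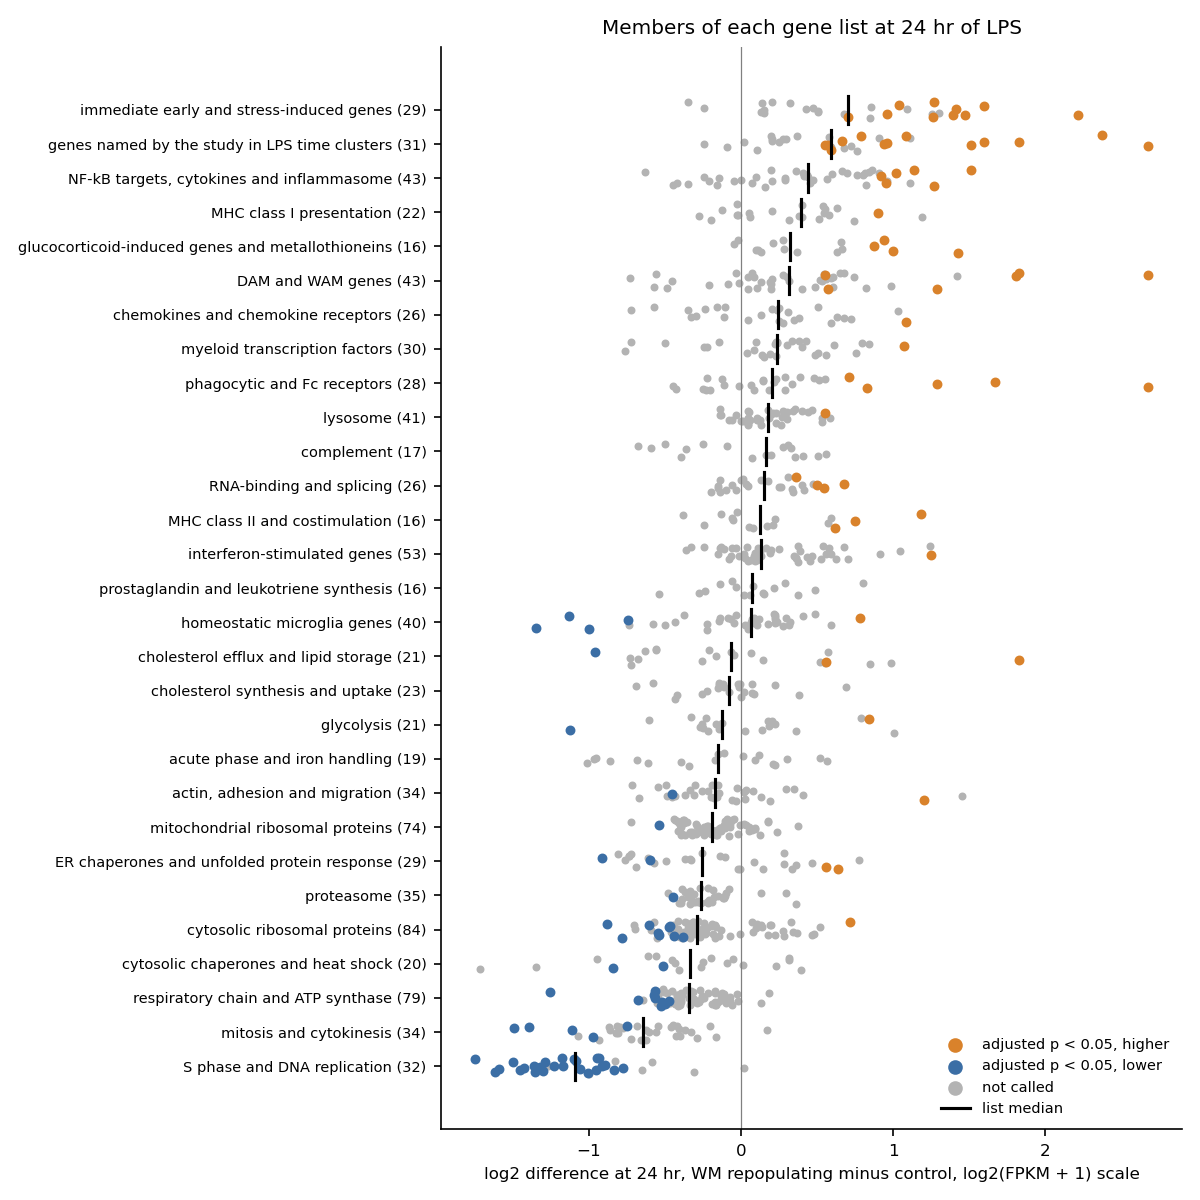
Log2 difference at 24 hr of LPS (x axis, WM repopulating minus control, log2(FPKM + 1) scale) of every tested member of 29 gene lists (y axis, number of tested genes in parentheses, ordered by list median). Each point is a gene, orange where higher and blue where lower at adjusted p under 0.05, and the black bar is the list median, which runs from -1.09 for S phase genes to 0.70 for immediate early genes.

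Genes of S phase and DNA replication were the list with the most members lower in WM repopulating than in control cells at 24 hr. Summed over the list, the group means were 261.9 FPKM at 0 hr and 644.1 FPKM at 24 hr in controls, and 267.8 and 333.2 FPKM in WM repopulating cells. Of 32 listed genes, all of which were tested, 25 were lower, none was higher and 7 were not called, with a median log2 difference of -1.09 against 0.02 over all genes. For 29 of the 32 genes the groups did not overlap. The MCM proteins form the ring-shaped helicase that opens DNA ahead of the replication fork, and 5 of its subunits were lower. Mcm6 stood at 50.2, 49.2, 45.3 and 42.7 FPKM in the control libraries and at 12, 18.3, 17.7 and 12.4 FPKM in the WM repopulating libraries (log2 difference -1.59 ± 0.25 (SE), n = 4 per group, limma adjusted p = 0.00075). Mcm7 stood at 24.5, 26.3, 19.7 and 17.2 FPKM in controls and at 7.48, 7.87, 8.07 and 6.38 FPKM in WM repopulating cells (-1.43 ± 0.17, limma adjusted p = 3.5e-05). All 4 WM libraries were thus well below the lowest control library for both subunits. Mcm5 (-1.75), Mcm4 (-1.35) and Mcm3 (-1.10) were lower too. Mcm2 was at 24.2, 19.4, 18.2 and 5.83 FPKM in controls and at 6.92, 5.59, 4.95 and 5.39 FPKM in WM repopulating cells, with the overlapping control value in replicate 4 (-1.27, limma adjusted p = 0.082, and 0.018 without that library). Mcm2, Mcm3 and Mcm5 were chosen after their values were seen.

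The promoters of 2 MCM genes that held matches upstream of the start site are shown. E2F factors, which switch on replication genes at the start of S phase, are known to act through short motifs close to the start sites of such genes. The letters TTTCCCGC and TTTGGCGC were searched on both strands in RefSeq windows of GRCm38.p6 running from 250 bases before to 50 bases after each start site, and matches are in capitals. The following stretches lie upstream of the start sites of Mcm5, on the forward strand of chr8:75109320-75109407, and Mcm6, on the reverse strand of chr1:128359706-128359855.
Mcm5: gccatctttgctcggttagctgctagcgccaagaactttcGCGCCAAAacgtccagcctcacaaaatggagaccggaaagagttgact
Mcm6: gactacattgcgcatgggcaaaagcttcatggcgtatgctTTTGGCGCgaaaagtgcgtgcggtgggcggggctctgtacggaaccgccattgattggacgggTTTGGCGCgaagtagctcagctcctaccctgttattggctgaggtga
Mcm5 held 1 match, starting 149 bases before the start site, and Mcm6 held 2, starting 110 and 47 bases before it. In all, 9 of 28 promoters of the S phase list held a match (32.1%, for 26 of the 32 genes), against 362 of 12330 promoters of all genes tested (2.94%) and 514 of all 32851 promoters in the table (1.56%). The 9 promoters belonged to Mcm3, Mcm5, Mcm6, Mcm7, Rfc3, Pold1, Cdt1, Cdc6 and Pola1, each of which was lower at 24 hr, Rfc3 not without control replicate 4 (limma adjusted p = 0.13). By contrast 2 of 30 promoters of the mitosis list and 0 of 34 of the immediate early list held these letters. The matches of Mcm3, Rfc3, Pold1 and Cdt1 did not lie before the start site, and Mcm2 and Mcm4 were not among the matched genes. Over the whole list 25 of the 32 genes were lower at 24 hr. The listed genes and the letters were both chosen from what is known of replication, so that the share of matches was no test of the 24 hr difference. A match describes the sequence only and is not evidence of binding, and a part of E2F factors in the difference was not tested.

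Other genes of replication named here followed the same course. Lig1, Hells and Dscc1, which are not on the list, were named for being among the 15 lowest called genes without overlap. Replication genes outside the list were not counted. Lig1, the ligase that joins Okazaki fragments, was at 20, 23.1, 18.3 and 31.7 FPKM in controls and at 3.91, 3.15, 5.18 and 5.64 FPKM in WM repopulating cells, the lowest log2 difference of the replication genes named here (-2.14 ± 0.23, limma adjusted p = 9.8e-06). Hells, a chromatin remodeller of dividing cells, was at 8.3 to 21.6 FPKM in controls and 2.04 to 3.7 FPKM in WM repopulating cells (-1.83 ± 0.27, limma adjusted p = 0.00034). Uhrf1, which carries DNA methylation through replication, was at 6.38 to 11 against 1.54 to 2.4 FPKM (-1.62 ± 0.25), and Pole2, a subunit of the leading-strand polymerase, was at 7.49 to 14.8 against 2.05 to 3.86 FPKM (-1.53 ± 0.25). Tk1, the thymidine kinase of S phase, was at 8.42 to 15.2 against 3.22 to 5.81 FPKM (-1.29 ± 0.24). Dscc1, of the clamp loader that serves sister chromatid cohesion, was at 5.28 to 12.3 against 0.715 to 1.79 FPKM (-1.81 ± 0.38, limma adjusted p = 0.0074). The sliding clamp gene Pcna did not follow: it was at 60.9 to 82.9 FPKM in controls and 59 to 79.6 FPKM in WM repopulating cells (0.02 ± 0.11, limma adjusted p = 0.94). The count of S phase genes called was 21 without control replicate 4 and ranged from 18 to 23 when each 24 hr library was left out.

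Of 34 mitotic genes tested, 5 were lower, none was higher and 29 were not called, with a median of -0.64, and in 17 the groups did not overlap. The 5 were Spc24, Top2a, Mki67, Tpx2 and Ncapd2, the last of them chosen after its values were seen. Top2a, the topoisomerase that untangles sister chromatids, was at 6.95, 6.58, 4.51 and 12.1 FPKM in controls and at 2.7, 2.05, 2.39 and 1.38 FPKM in WM repopulating cells (-1.40 ± 0.32, limma adjusted p = 0.015). Mki67, the gene of the proliferation marker Ki-67, was at 1.82 to 7.15 against 0.716 to 1.46 FPKM (-1.11 ± 0.26, limma adjusted p = 0.015). In each of these the highest value was that of control replicate 4, and without it 1 of the 5 mitotic genes was still called, Tpx2 (limma adjusted p = 0.047), while Top2a and Mki67 were at limma adjusted p = 0.059 and 0.056. The count was 2 without WM repopulating replicate 4 and 3 without control replicate 2 or WM repopulating replicate 2. Cenpk (-1.78 ± 0.23, limma adjusted p = 6.4e-05), a centromere protein, and Stmn1 (-1.54 ± 0.19, limma adjusted p = 3.6e-05), which controls microtubule turnover, were also lower, each with groups that did not overlap.

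**Figure D2:**
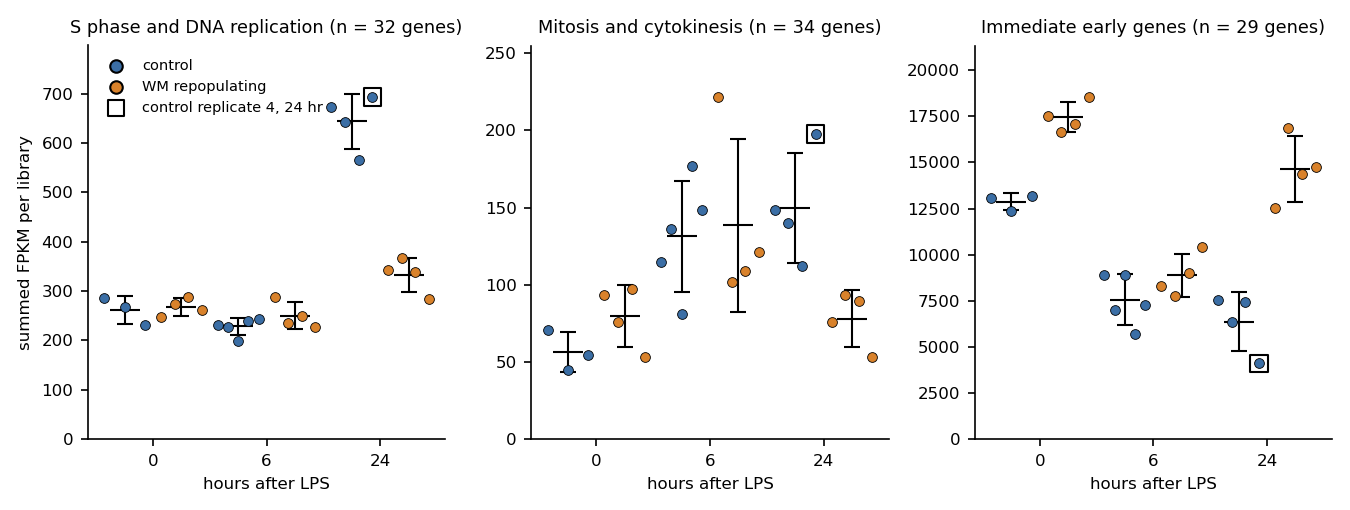
Summed FPKM per library (y axis) of the S phase, mitosis and immediate early lists at 0, 6 and 24 hr after LPS (x axis), with control libraries in blue and WM repopulating libraries in orange. Bars are mean ± SD over the libraries of a group, and the square marks control replicate 4. S phase levels at 24 hr reach 566.6 to 693.8 FPKM in controls and 284.8 to 366.9 FPKM in WM repopulating cells.

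The summed level of the S phase list separated the groups at 24 hr. The summed level of the 32 genes was 231.3 to 286.9 FPKM in control and 247.9 to 288.4 FPKM in WM repopulating libraries at 0 hr, 199 to 242.8 and 226.7 to 288.9 FPKM at 6 hr, and 566.6 to 693.8 and 284.8 to 366.9 FPKM at 24 hr. The ranges of the groups overlapped at 0 and 6 hr, and the control libraries stood wholly above the WM repopulating libraries at 24 hr. None of the 32 genes was called at 0 hr or 6 hr, with medians of 0.03 and 0.09, where 0.717% of all genes were higher and 0.497% lower at 0 hr and 0.213% and 0.11% at 6 hr. The difference between the time points was itself tested. It passed for 11 genes between 24 and 0 hr (0.0867% of genes) and for 20 between 24 and 6 hr (0.158%), among them 1 and 5 of the 32 listed S phase genes. Lig1 was among both (24 hr minus 0 hr, -2.18, limma adjusted p = 0.0074, and 24 hr minus 6 hr, -2.25, limma adjusted p = 0.0024), as was Cenpk (-1.97 and -1.67, limma adjusted p = 0.019 and 0.021). Pole2 (-2.41), Gmnn, the inhibitor of replication licensing (-2.16), Tk1 (-1.93), Stmn1 (-1.56) and the mitochondrial chaperonin Hspd1 (-0.93) differed between 24 and 0 hr. Gmnn was not called at 24 hr (-0.91, limma adjusted p = 0.070) and was higher at 0 hr (1.26, limma adjusted p = 0.040). Hells (-2.32), Mcm6 (-1.87), Mcm7 (-1.52), Mcm3 (-1.41), Mcm4 (-1.35), the nucleobase transporter Slc43a3 (-2.30) and the lectin Clec4n (-2.23) differed between 24 and 6 hr. Ier2, an immediate early gene, had a larger positive difference at 24 hr than at both other times (1.44 and 1.18, limma adjusted p = 0.023 and 0.047). Without control replicate 4 the calls of Mcm4 (limma adjusted p = 0.080) and of Ier2 against 6 hr (0.060) were lost, and the counts became 24 and 13 genes. Without the 6 hr control replicate 2 the counts were 29 and 28 genes, with 5 and 6 of the S phase list, and the call of Ier2 against 6 hr was lost (limma adjusted p = 0.059).

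Several other cell types could be held in a CD11b+CD45int gate, and their markers were summed in each library. Neutrophil markers (10 of 10 listed, led by S100a8 and S100a9) summed to 6427, 15339, 11221 and 6861 FPKM in controls and to 3541, 7234, 4296 and 3196 FPKM in WM repopulating libraries (exact permutation test, two-sided, p = 0.086, adjusted p = 0.26 over 12 marker lists). The ranges met in 1 library, WM repopulating replicate 2. Border-associated macrophage markers (10 of 10 listed) summed to 140.3, 140.7, 119.9 and 164.2 FPKM in controls and to 84.1, 107.5, 107.7 and 95.8 FPKM in WM repopulating libraries, without overlap (exact permutation test p = 0.029, the smallest that 4 against 4 can give, adjusted p = 0.17). Microglial markers overlapped (10292 to 13425 against 8965 to 13432 FPKM), as did monocyte (563.6 to 756.5 against 197.9 to 874 FPKM) and lymphocyte markers (48.1 to 81.8 against 34.2 to 75.7 FPKM). The highest sum in any of the 8 libraries at 24 hr was 58.4 FPKM for astrocyte, 61.8 FPKM for oligodendrocyte, 5.67 FPKM for neuron, 17.4 FPKM for endothelial, 1.94 FPKM for pericyte and 0.743 FPKM for erythrocyte markers. Choroid plexus markers, nearly all of it Ttr, were lower in sum (35.3 to 51.8 against 10.5 to 32 FPKM, exact permutation test p = 0.029, adjusted p = 0.17). The sign for choroid plexus markers summed at 24 hr, WM minus control, turned when the sum was replaced by the median of log2(FPKM + 1) over the markers (0.071, exact permutation test p = 0.457). No marker in the table was at 0 in all 8 libraries. The part of these cells in the gene differences was not tested, and in sorted bulk samples fewer cells of a type and less RNA per cell cannot be told apart.

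**Figure D3:**
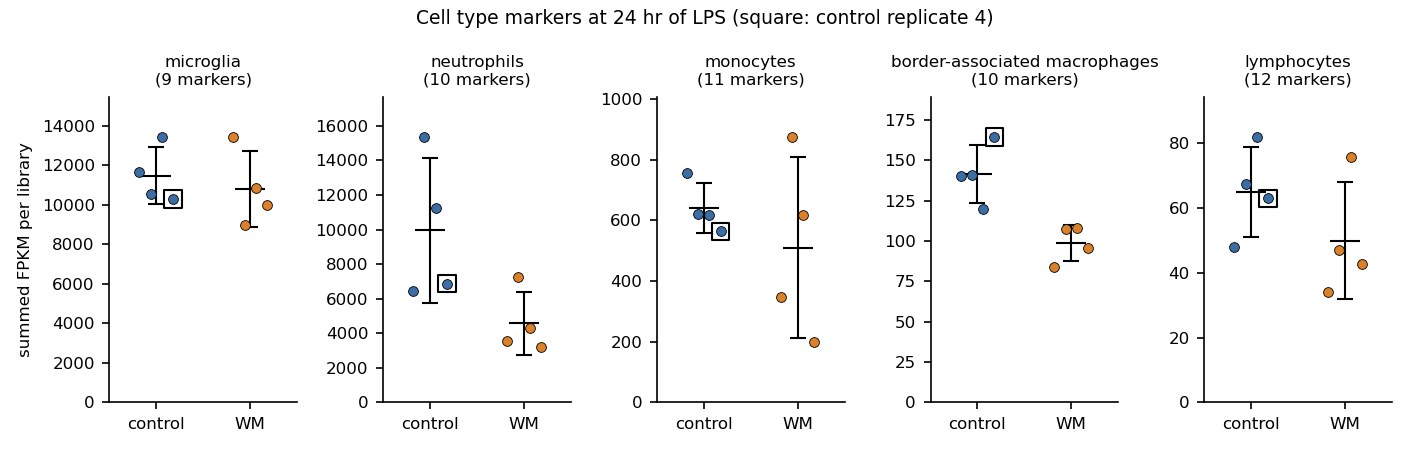
Summed FPKM of marker genes per library at 24 hr (y axis) for 5 cell types in control (blue) and WM repopulating (orange) libraries, with mean ± SD over 4 libraries and a square on control replicate 4. Border-associated macrophage sums do not overlap, and the neutrophil sums overlap in WM repopulating replicate 2.

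Of the markers tested, 1 of 10 for neutrophils (Cxcr2), 1 of 11 for lymphocytes (Cd79b), 3 of 9 for border-associated macrophages (Mrc1, Cd209f and Clec4n) and 0 of 11 for monocytes were lower, against 2.29% of all genes, and the monocyte marker Fn1 was higher. Camp and Ngp, which encode neutrophil granule proteins, were not called, with means of 244.8 FPKM in controls and 270.1 FPKM in WM repopulating cells for Camp and of 627.7 and 591.1 FPKM for Ngp. Prok2, a secreted chemoattractant made by neutrophils, was at 11.3, 33.7, 8.4 and 15.9 FPKM in controls and at 1.27, 2.21, 4.43 and 1.99 FPKM in WM repopulating cells (-2.29 ± 0.34, limma adjusted p = 0.00034). Cd79b, a signalling chain of the B cell receptor, was at 25.6 to 35.3 against 5.69 to 8.33 FPKM (-1.99 ± 0.27, limma adjusted p = 0.00014), and it was lower at 0 hr by a like amount (-2.0, limma adjusted p = 0.00071). At 6 hr Cd79b was not called (-0.78, limma adjusted p = 0.25, means of 7.88 and 4.09 FPKM). Of other lymphocyte markers, Cd79a was not called (mean 0.358 FPKM in control and 0.417 FPKM in WM repopulating libraries), Ms4a1 was below the filter (0.392 and 0.331 FPKM), and Lck was not called (2.34 and 3.4 FPKM). Clec4n, a C-type lectin that binds fungal sugars, was at 13.4 to 35.1 against 3.33 to 6.51 FPKM (-1.79 ± 0.26), and Adgre4, an adhesion receptor of macrophages and monocytes, was at 9.94 to 21.3 against 2.41 to 9.42 FPKM (-1.78 ± 0.32). The border-macrophage genes Mrc1, the mannose receptor (3.81 ± 1.01 against 1.09 ± 0.38 FPKM, mean ± SD, n = 4), and Cd209f, a lectin of the DC-SIGN family (2.54 ± 1.80 against 0.190 ± 0.093 FPKM), were both called, as were Pecam1, the adhesion molecule of endothelium and leukocytes (-1.56), and Gimap9 (-1.78), a GTPase of immune cells. Ifitm1 (30.4 to 217 against 15 to 25.8 FPKM, -1.83, limma adjusted p = 0.022) and the neutrophil chemokine receptor Cxcr2 (5.45 to 30.9 against 2.53 to 4.3 FPKM, -1.42, limma adjusted p = 0.050) were highest in control replicate 2, the library with the highest neutrophil sum, and were not called without control replicate 4 (limma adjusted p = 0.056 and 0.098). Cd209f, Mrc1, Pecam1 and Cxcr2 were chosen after their values were seen.

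Of 40 homeostatic microglia genes, which mark resting microglia, 4 were lower and 1 higher, and the list median was 0.07. Fcrls, an Fc receptor-like molecule of resting microglia, was at 1210, 928, 1472 and 836 FPKM in controls and at 710, 277, 484 and 633 FPKM in WM repopulating cells (-1.13 ± 0.22, limma adjusted p = 0.0044). Crybb1, a crystallin expressed by microglia of the young brain, was at 269, 283, 311 and 170 against 142, 33.8, 120 and 161 FPKM (-1.35 ± 0.32, limma adjusted p = 0.016), a difference also called at 0 hr (-1.47, limma adjusted p = 0.030). Ecscr (-0.74 ± 0.16) and Upk1b (-1.0 ± 0.25) were lower at both 24 and 0 hr, Upk1b at 24 hr not without control replicate 4 (limma adjusted p = 0.072). The groups did not overlap in any of the 4 genes. The homeostatic markers most used to name microglia were not among those called: P2ry12, the ADP receptor, differed by 0.11 ± 0.23 (SE) log2 units and Sall1, the transcription factor of microglial identity, -0.22 ± 0.16. Tmem119 was at 1979, 1790, 1986 and 556 FPKM in controls, with the low value in control replicate 4, and at 2277, 2157, 2148 and 1904 FPKM in WM repopulating cells (0.59 ± 0.28, limma adjusted p = 0.26). Lag3, an inhibitory receptor on the same list chosen after its values were seen, was higher (0.78, limma adjusted p = 0.042) but not without control replicate 4 (0.14).

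Some short noncoding RNAs were among the genes with the largest negative differences. Of 94 tested genes with the symbol of a small nuclear, Cajal body, nucleolar, Y, vault, 7SK, ribonuclease P or micro RNA, a group formed after their values were seen that also holds the microRNA host genes Mir17hg, Mir22hg and Mir99ahg, 12 were lower and 2 higher. The median log2 difference of the 94 was 0.06, and 51 of them had a positive difference. Rnu1a1, a U1 spliceosomal RNA, was at 52.3, 49, 44.5 and 45.9 FPKM in controls and at 8.81, 7.34, 1.9 and 5.87 FPKM in WM repopulating cells (-2.94 ± 0.37, limma adjusted p = 5.1e-05). Rnu12, of the minor spliceosome, was at 180 to 296 against 19.6 to 50.1 FPKM (-2.77 ± 0.33), Rnu2-10 at 12.6 to 22.8 against 1.55 to 2.57 FPKM (-2.59 ± 0.42), Rnu5g at 21.2 to 32.9 against 4.98 to 9.22 FPKM (-2.04 ± 0.31), and Rpph1, the RNA of ribonuclease P, at 76.4 to 292 against 26.4 to 46.3 FPKM (-2.0 ± 0.36). Rnu12 and Rnu2-10 also differed between 24 and 6 hr (-2.65 and -2.94, limma adjusted p = 0.0090 and 0.031), the second not without control replicate 4 (0.080), and Rnu12 was lower at 0 hr as well (-1.90, limma adjusted p = 0.0081). These RNAs mostly lack a poly(A) tail and are shorter than a usual library fragment, so that the amount recovered depends on priming and size selection. Whether this moved with the groups was not tested.

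Some transcripts of ribosomal and respiratory proteins were lower. Of 84 cytosolic ribosomal protein genes 9 were lower and 1 higher (median -0.29), and of 79 genes of the respiratory chain and ATP synthase 9 were lower and none higher (median -0.34). Rpl29 was at 26.5, 29.2, 26.7 and 30 FPKM in controls and at 18, 16.2, 15.6 and 10.5 FPKM in WM repopulating cells (-0.88 ± 0.16, limma adjusted p = 0.0021), and Rps15 (-0.54) was also lower. Rps27, chosen after its values were seen, was the ribosomal gene that was higher (0.71, limma adjusted p = 0.021), though not without control replicate 4 (0.068). Of the respiratory genes, Atp5j2, a subunit of ATP synthase, was at 219 to 275 against 149 to 180 FPKM (-0.56 ± 0.10, limma adjusted p = 0.0017), Atp5e was lower by 0.50, Cox7b, of cytochrome c oxidase, by 0.68 and Ndufb11, of complex I, by 0.52. Without control replicate 4, 5 genes of each list were lower. The ribosomal count was 4 without control replicate 1 or WM repopulating replicate 2, and the respiratory count was 2 without WM repopulating replicate 2, 5 without WM repopulating replicate 4 and 14 without control replicate 3. The counts were 14 ribosomal and 17 respiratory genes without the 6 hr control replicate 2. Single genes of the mitochondrial ribosome (Mrps21, -0.54, 1 of 74) and the proteasome (Psmb3, -0.45, 1 of 35) were lower, with list medians of -0.19 and -0.26, and neither was called without control replicate 4. A further proteasome gene, Psma1, was called without the 6 hr control replicate 2 (-0.48, limma adjusted p = 0.048).

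Of 29 genes of the endoplasmic reticulum and unfolded protein response 2 were lower, the disulfide isomerase Pdia4 (-0.91) and the secreted stress factor Manf (-0.60), and 2 were higher, the transcription factors Atf4 (0.64) and Atf6 (0.56). None of the 4 was called without control replicate 4 (limma adjusted p = 0.074, 0.13, 0.12 and 0.092). With other 24 hr libraries left out, the lower count was 8 without WM repopulating replicate 1, 4 without replicate 4 and 0 without replicate 2, and the higher count was 0 or 1. The lower count was 4 without the 6 hr control replicate 2, with the chaperone Hsp90b1 (-0.74, limma adjusted p = 0.047) and Sdf2l1 (-0.81, limma adjusted p = 0.044). Pdia4 and Manf were lowest in WM repopulating replicate 2 (41.1 and 93.4 FPKM). Of 20 cytosolic and mitochondrial chaperones, the chaperonin pair Hspd1 (-0.51 ± 0.12, limma adjusted p = 0.016) and Hspe1 (-0.84 ± 0.24, limma adjusted p = 0.047) was lower, Hspe1 not without control replicate 4 (0.14).

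Among the higher genes, those of disease-associated and white matter-associated microglia (DAM and WAM), states described in degeneration and ageing, gave 6 called of 43 and none lower, with a median of 0.32. Axl, a TAM receptor kinase that takes up apoptotic cells, had the largest positive difference of all genes tested. It was at 4.74, 6.24, 3.33 and 1.74 FPKM in controls and at 31.6, 30.5, 33.3 and 22.5 FPKM in WM repopulating cells (2.68 ± 0.27, limma adjusted p = 8.5e-06), and it was also higher at 0 hr (2.31) and 6 hr (1.41). Apoe, the main lipid carrier of the brain, was at 1216, 1146, 871 and 644 FPKM in controls and at 3746, 4047, 4026 and 2045 FPKM in WM repopulating cells (1.83 ± 0.24, limma adjusted p = 9.5e-05), with 0.65 at 0 hr (limma adjusted p = 0.29) and 1.24 at 6 hr (0.011). Every WM library thus held more of both transcripts than any control library. Hcar2, the receptor for niacin and ketone bodies, was at 29.2 to 92.9 against 145 to 305 FPKM (1.81 ± 0.39, limma adjusted p = 0.0085). It was higher at 0 hr too (2.07, limma adjusted p = 0.013) and was not called at 6 hr (0.68, limma adjusted p = 0.61). Clec7a, the fungal sugar receptor Dectin-1, was at 4.49 to 9.55 against 10.6 to 26.9 FPKM (1.29 ± 0.26, limma adjusted p = 0.0053), and was higher at 0 hr (1.46) and 6 hr (1.81) as well. Ctss, a lysosomal cysteine protease and 1 of the most abundant transcripts, was at 7418 to 9175 against 10278 to 13802 FPKM (0.56 ± 0.14, limma adjusted p = 0.022), the 1 gene called of 41 on the lysosome list. Cd34 was higher (0.57, limma adjusted p = 0.031) but not without control replicate 4 (0.092). It was also higher at 0 hr (0.96, limma adjusted p = 0.0027) and 6 hr (1.18, limma adjusted p = 5.7e-05). Cst7, a further DAM gene, was at 43.2 to 52.1 against 24.9 to 43.5 FPKM (-0.45 ± 0.25, limma adjusted p = 0.35).

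**Figure D4:**
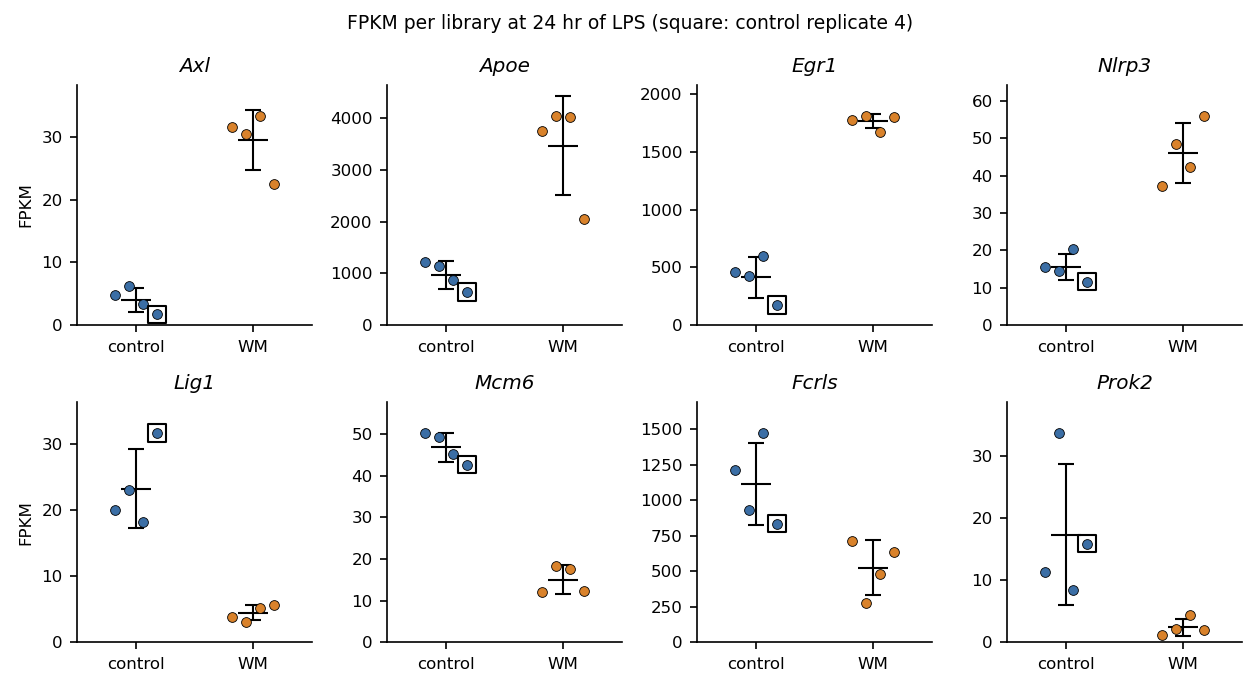
FPKM per library at 24 hr (y axis, linear, each gene on its own scale) of 4 higher genes (Axl, Apoe, Egr1, Nlrp3) and 4 lower genes (Lig1, Mcm6, Fcrls, Prok2) in control (blue) and WM repopulating (orange) libraries. Bars are mean ± SD over 4 libraries, the square is control replicate 4, and the groups do not overlap in any of the 8 genes.

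Phagocytic and Fc receptors gave 5 called of 28 and none lower (median 0.20). Beside Axl and Clec7a these were Fcgr4, an activating Fc receptor (183 to 231 against 255 to 377 FPKM, 0.71 ± 0.15, limma adjusted p = 0.0083), Havcr2, the checkpoint receptor TIM-3 (57.7 to 72 against 77 to 194 FPKM, 0.83 ± 0.19, limma adjusted p = 0.013) and Cd300lf, a lipid-binding receptor (37.4 to 82.5 against 80.3 to 524 FPKM, 1.67 ± 0.46, limma adjusted p = 0.042), the last with overlapping groups, chosen after its values were seen, and not called without control replicate 4 (0.093). The count was 3 without WM repopulating replicate 2, which held the highest Cd300lf and Havcr2 values. Of 21 genes of lipid efflux and storage, Apoe and the lipase Lipe (0.56, limma adjusted p = 0.045) were higher, and Mgll, which cleaves monoacylglycerols, was lower (7.19 to 9.92 against 2.79 to 6.34 FPKM, -0.96 ± 0.21, limma adjusted p = 0.0089). Lipe was not called without control replicate 4 (0.15).

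Immediate early genes, the transcription factors and feedback regulators that cells induce within minutes of a stimulus or of tissue handling, formed the group with the highest median (0.70). Of 29 tested, 10 were higher and none lower, and 27 had a positive difference. Egr1, a zinc finger transcription factor, was at 464, 426, 601 and 175 FPKM in controls and at 1778, 1813, 1677 and 1803 FPKM in WM repopulating cells (2.21 ± 0.34, limma adjusted p = 0.00051). Ier2 was at 424, 489, 454 and 250 against 1015, 1425, 1022 and 1342 FPKM (1.60 ± 0.18, limma adjusted p = 1.9e-05). Dusp1, the phosphatase that shuts off MAP kinases, was at 847 to 1190 against 1863 to 4045 FPKM (1.40 ± 0.22, limma adjusted p = 0.00054), and Ppp1r15a, which restores translation after stress, at 166 to 303 against 399 to 527 FPKM (0.96 ± 0.16, limma adjusted p = 0.00093). Zfp36, which degrades cytokine mRNAs (188 to 750 against 1168 to 1430 FPKM, 1.47), Btg2 (343 to 399 against 813 to 1042 FPKM, 1.27), Junb (85.5 to 624 against 863 to 1059 FPKM, 1.42) and Klf6 (0.70), chosen after their values were seen, were higher too. Control replicate 4 held the lowest Junb, Zfp36, Egr1 and Ier2 values. Without it 9 of the genes were called, Klf6 not (limma adjusted p = 0.063), and the median was 0.73. The sum over the list was 12351 to 13174 FPKM at 0 hr, 5689 to 8922 FPKM at 6 hr and 4104 to 7516 FPKM at 24 hr in controls, and 16645 to 18557, 7739 to 10441 and 12523 to 16893 FPKM in WM repopulating cells. The groups overlapped at 6 hr. At 0 hr 1 of the 29 genes, Ier5, was called and at 6 hr none. With all libraries Ier2 alone of the 29 passed the limma test of the difference between times. Without the 6 hr control replicate 2, Ier2 passed from 0 hr (limma adjusted p = 0.016) and not from 6 hr (0.059). In that fit Egr1 passed from 6 hr (1.74, limma adjusted p = 0.047) and not from 0 hr (0.0502), and 12 of the 29 genes were higher at 24 hr.

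Of 43 NF-kB targets, cytokines and inflammasome genes 6 were higher and none lower (median 0.44). Nlrp3, the sensor of the inflammasome that activates IL-1, was at 15.7, 14.6, 20.3 and 11.6 FPKM in controls and at 37.2, 48.4, 42.4 and 56 FPKM in WM repopulating cells (1.51 ± 0.19, limma adjusted p = 5.1e-05), a difference not called at 0 hr (0.31) or 6 hr (0.33). The change in the Nlrp3 difference between times did not pass the test with all libraries (limma adjusted p = 0.090 from 0 hr and 0.072 from 6 hr), and without the 6 hr control replicate 2 it passed from 0 hr (0.044) and not from 6 hr (0.081). Nfkbiz, a nuclear IkB protein, was at 70.5 to 77.7 against 152 to 178 FPKM (1.14 ± 0.23, limma adjusted p = 0.0057), Tgif1, a repressor of TGF-beta signalling, at 51.9 to 69.8 against 97.3 to 130 FPKM (0.96 ± 0.16, limma adjusted p = 0.0011), and Bcl2a1d, a survival factor, at 9.29 to 15.6 against 21 to 42.1 FPKM (1.27 ± 0.33, limma adjusted p = 0.028). Bcl2a1d was higher at 0 hr too (2.25, limma adjusted p = 0.0012). Osm (1.02) and the NF-kB subunit Rel (0.92), chosen after their values were seen, were called with all libraries and not without control replicate 4 (limma adjusted p = 0.13 and 0.072). The count was 3 without control replicate 3 or WM repopulating replicate 3. The cytokine genes Il1a, Tnf and Il1b were not called with all libraries. Il1a was at 305 to 436 FPKM in controls and 641 to 924 FPKM in WM repopulating cells and Tnf at 170 to 276 against 300 to 450 FPKM, in both without overlap, with limma adjusted p = 0.21 and 0.17 in a fit that takes its spread from all 24 libraries. In the 6 hr control replicate 2 Il1a was at 1783 FPKM, against 131 to 200 FPKM in the other 6 hr controls, and Tnf at 637 against 145 to 217 FPKM. Without that library Il1a (limma adjusted p = 0.0002) and Tnf (limma adjusted p = 0.025) were called higher, and the count for the list was 12 in place of 6. The other 4 genes called only then were Nfkbia (1169 to 1313 against 1926 to 2078 FPKM, limma adjusted p = 0.0018) and Nfkbib (limma adjusted p = 0.00052), which encode inhibitors of NF-kB, Cd14, the lipopolysaccharide co-receptor (856 to 1095 against 1479 to 2161 FPKM, limma adjusted p = 0.021), and Tnfaip3, the feedback regulator A20 (36.4 to 43 against 57.2 to 93.5 FPKM, limma adjusted p = 0.031). In none of the 4 did the groups overlap at 24 hr. Without that library the change in the difference between times passed for Nfkbiz from 0 hr (0.90, limma adjusted p = 0.034) and from 6 hr (0.90, limma adjusted p = 0.023). For Nfkbib it passed from 6 hr (0.95, limma adjusted p = 0.048) and not from 0 hr (0.48, limma adjusted p = 0.45). Il1b overlapped (78.2 to 117 against 66 to 124 FPKM) and was called in neither fit.

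Of 26 chemokines and receptors, 1 was higher, the atypical receptor Ccrl2 (43.5 to 58.1 against 98.2 to 143 FPKM, 1.09, limma adjusted p = 0.022, and 0.068 without control replicate 4). Ccl12, a ligand of CCR2, was at 2624, 3129, 3446 and 5143 FPKM in controls and at 6568, 5229, 5205 and 5357 FPKM in WM repopulating cells (0.68 ± 0.29, limma adjusted p = 0.21). Ccl2 (1641 to 2615 against 1844 to 2796 FPKM) and Ccl4 (1498 to 1622 against 1596 to 2298 FPKM) overlapped and were not called. Ccl3 did not overlap (1338 to 1789 against 1910 to 3394 FPKM) and was not called with all libraries (0.59 ± 0.46, limma adjusted p = 0.55). In the 6 hr control replicate 2 Ccl3 was at 10342 FPKM, against 822 to 1334 FPKM in the other 6 hr controls, and Ccl4 at 20471 against 717 to 1486 FPKM. Without that library Ccl3 was called (0.59 ± 0.18, limma adjusted p = 0.049), and Ccl4 (0.45) and Ccl12 (0.092) were not. Of 53 interferon-stimulated genes 1 was higher, Oas2 (1.25, limma adjusted p = 0.013), whose groups overlapped in WM repopulating replicate 2 at 8.92 FPKM, and the list median was 0.13.

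Genes induced by glucocorticoids gave 4 called of 16. Fkbp5, the co-chaperone of the glucocorticoid receptor, was at 23.6, 32.8, 18.5 and 24.4 FPKM in controls and at 42.9, 169, 70.4 and 39.6 FPKM in WM repopulating cells (1.43 ± 0.35, limma adjusted p = 0.021). Per1, a clock gene, was at 7.23 to 10.3 against 12.5 to 29.8 FPKM (1.0 ± 0.19, limma adjusted p = 0.0038), Cdkn1a, the cell cycle inhibitor p21, at 108 to 125 against 184 to 369 FPKM (0.94 ± 0.18, limma adjusted p = 0.0039) and Tsc22d3 at 39 to 61.4 against 62.9 to 204 FPKM (0.88, limma adjusted p = 0.048, and 0.14 without control replicate 4). WM repopulating replicate 2 held the highest Fkbp5, Cdkn1a and Tsc22d3 values, and the count was 2 without it. The count was also 2 without control replicate 1, control replicate 3 or WM repopulating replicate 3.

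Of 16 class II and costimulation genes 3 were higher: H2-Oa (8.59 to 22.6 against 36.9 to 40.7 FPKM, 1.18 ± 0.20, limma adjusted p = 0.0011) and H2-Ob (5.94 to 8.97 against 10.4 to 17.1 FPKM, 0.75 ± 0.17, limma adjusted p = 0.011), which form the H2-O modulator of peptide loading, and H2-DMa (276 to 344 against 394 to 586 FPKM, 0.62 ± 0.14, limma adjusted p = 0.015), a chain of the H2-M exchanger on which it acts. All 3 were called without control replicate 4. Of 22 class I genes 21 were not called and 1 was higher, Nlrc5, the transactivator of class I genes (2.76 to 5.52 against 6.34 to 11.9 FPKM, 0.90 ± 0.21, limma adjusted p = 0.015). The class I count was 0 without control replicate 1, control replicate 3 or WM repopulating replicate 2, 2 without control replicate 2 and 3 without WM repopulating replicate 4. It was 2 without the 6 hr control replicate 2, with H2-K1 (0.74, limma adjusted p = 0.023).

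Of 26 genes of RNA binding and splicing 4 were higher and none lower. Srsf5 was at 175 to 216 against 295 to 331 FPKM (0.68 ± 0.12, limma adjusted p = 0.0015), the helicase Ddx5 at 385 to 518 against 549 to 682 FPKM (0.50 ± 0.11, limma adjusted p = 0.0073), and Clk1, a kinase of splicing factors (0.55), and Hnrnpu (0.36, limma adjusted p = 0.084 without control replicate 4) were higher by small amounts. The count was 7 without control replicate 4 and 2 without control replicate 2 or 3 or WM repopulating replicate 2 or 3. Few genes were called in 3 further lists. Cebpb, of 30 myeloid transcription factors, was higher (1.08, limma adjusted p = 0.042) with overlapping groups, at 84.8 FPKM in control replicate 4, and was not called without it (0.14). Cebpb was also higher at 0 hr (1.80, limma adjusted p = 0.0046) and was not called at 6 hr (0.35, limma adjusted p = 0.78). Of 21 glycolysis genes the regulatory enzyme Pfkfb4 was higher (0.84) and Aldoc lower (-1.12), neither of them without control replicate 4. Of 34 genes of actin, adhesion and migration Myo5a, a cargo motor, was higher (1.11 to 1.58 against 4 to 4.6 FPKM, 1.21 ± 0.14, limma adjusted p = 3.5e-05) and Pfn1, an actin monomer binder, lower (-0.45, limma adjusted p = 0.033). Without the 6 hr control replicate 2 the myeloid factors Cebpa (0.76), Lyl1 (0.84) and Irf1 (0.80), the glucose transporter gene Slc2a1 (1.01) and the adhesion gene Vcam1 (1.46) were called higher as well (limma adjusted p from 0.017 to 0.047). No gene passed the limma threshold among 17 complement genes (median 0.16), 23 of cholesterol synthesis and uptake (-0.08), 19 of the acute phase and iron handling (-0.15) or 16 of prostaglandin and leukotriene synthesis (0.07), where 2238 of all genes had an unadjusted p under 0.05. Without the 6 hr control replicate 2, Cp, the ferroxidase ceruloplasmin, was lower (-0.86, limma adjusted p = 0.019) and Alox5, which makes leukotrienes, was higher (0.80, limma adjusted p = 0.017).

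Other genes with large positive differences fell outside the functional lists described so far. Scimp, an adaptor of Toll-like receptor signalling, was at 8.36, 9.82, 15.3 and 15.2 FPKM in controls and at 64.1, 97.4, 56.7 and 51.5 FPKM in WM repopulating cells (2.38 ± 0.41, limma adjusted p = 0.0014). P2ry14, the receptor for UDP-glucose, was at 0.364 to 1.92 against 4.82 to 14.5 FPKM (2.22 ± 0.38), Ctse, an aspartic protease, at 0.077 to 1.59 against 3.41 to 14.4 FPKM (2.06 ± 0.33), and Fn1, fibronectin, at 1.75 to 6.2 against 11.2 to 16.8 FPKM (1.86 ± 0.33). Fn1 is also 1 of the 11 monocyte markers, and the only 1 of them that was called. Slc10a6, a carrier of steroid sulphates, was at 0.386 to 1.46 against 3.04 to 18.8 FPKM (1.77, limma adjusted p = 0.013), Htra3, a secreted protease, at 3.23 to 12.7 against 21.2 to 29.7 FPKM (1.73 ± 0.28), the potassium channel gene Kcna3 at 4.41 to 8.43 against 17.5 to 32.9 FPKM (1.71 ± 0.28), Haao, of the kynurenine pathway, at 2.14 to 8.68 against 16 to 25.7 FPKM (1.62 ± 0.29) and Irs2, the insulin receptor substrate, at 5.96 to 12.8 against 20 to 41.2 FPKM (1.56 ± 0.24). Scimp, P2ry14, Htra3, Kcna3, Haao and Irs2 were also higher at 0 hr, by 1.04 to 2.06.

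Of the 31 genes that the study itself named from its clusters over LPS time, 13 were higher and none lower (median 0.59). These genes were picked from the same samples, so that their direction is not independent evidence. The 13 include Axl, Scimp, Apoe, Ier2, Nlrp3, Ccrl2, Ppp1r15a, Cd34 and Ctss, and the autophagy genes Atg2a (4.31 to 6.49 against 9.74 to 12.5 FPKM, 0.94 ± 0.18) and Wdr45b (0.59), the transcription elongation kinase Cdk9 (17.3 to 21.6 against 28.3 to 37.5 FPKM, 0.79 ± 0.15) and the histone chaperone Ubn1 (0.66, limma adjusted p = 0.054 without control replicate 4). Nfkbib had no overlap (63.7 to 71 against 115 to 136 FPKM) and limma adjusted p = 0.061, and it was called without the 6 hr control replicate 2. H2-K2 (0.58), Cxcl13 (0.73) and Tlr3 (0.37) were not called and did not overlap, and Plek (0.30), Csf1 (0.21), Myc (0.20), Cd63 (0.20), Ctsl (0.11) and C4b (-0.09) were not called and overlapped. Without control replicate 4 the count was 10.

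The differences at 24 hr were set beside those at the other times. The groups compared share no libraries across times, but every comparison takes its spread from the same fit, so that the calls are not independent. Of the 213 genes higher at 24 hr, 187 had a positive difference at 0 hr (87.8%, against 51.7% of all genes) and 33 were called there, 15.5% of the 24 hr genes and 36.3% of the 91 higher at 0 hr. At 6 hr 184 were positive (86.4%, against 50.3%) and 15 were called, 7.04% of the 24 hr genes and 55.6% of the 27 higher at 6 hr. Of the 290 lower genes, 221 were negative at 0 hr (76.2%, against 48.3% of all genes) and 29 were called, 10% of the 24 hr genes and 46% of the 63 lower at 0 hr, and 200 were negative at 6 hr (69%, against 49.7%) with 6 called, 2.07% of the 24 hr genes and 42.9% of the 14 lower at 6 hr. The median difference of the 290 genes was -0.98 at 24 hr, -0.21 at 0 hr and -0.11 at 6 hr, and that of the 213 was 0.79, 0.36 and 0.29. Across all genes the differences at 24 hr correlated with those at 0 hr at r = 0.315 and at 6 hr at r = 0.289, over 12684 genes that are not independent.

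Some calls that held without control replicate 4 were lost when another 24 hr library was left out, and the highest limma adjusted p over the libraries left out is given here. Without WM repopulating replicate 2 it was 0.10 for Bcl2a1d, 0.097 for Fkbp5, 0.095 for Junb, 0.072 for Nlrc5, 0.066 for Hspd1, 0.061 for Ndufb11, 0.061 for Atp5e, 0.055 for Slc10a6 and 0.051 for Havcr2. Without WM repopulating replicate 3 it was 0.086 for Tpx2, 0.060 for H2-DMa and 0.053 for Oas2. Without control replicate 1 it was 0.094 for Clk1 and 0.079 for Ctss, without control replicate 2 it was 0.088 for Pfn1, and without control replicate 3 it was 0.051 for Mrc1.

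**Figure D5:**
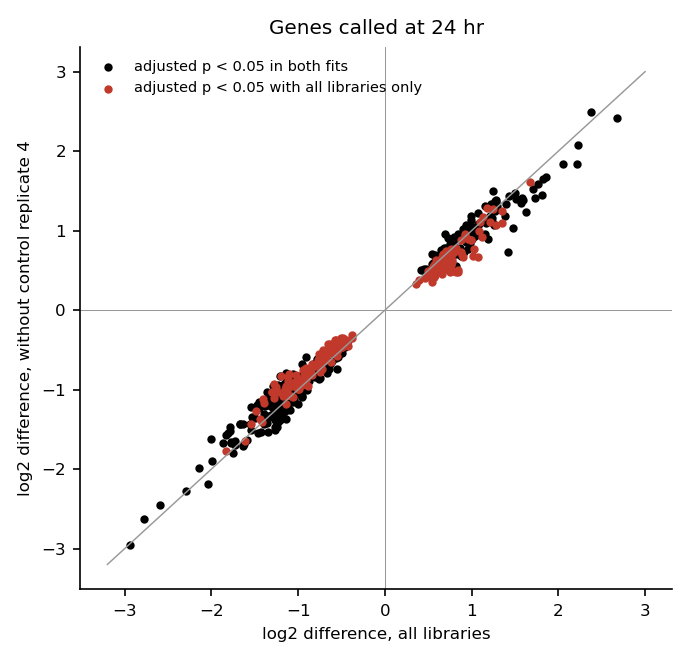
Log2 difference at 24 hr of the 503 called genes with all libraries (x axis) and without control replicate 4 (y axis). Black points were called in both fits and red points only with all libraries, the grey diagonal marks equal values, and every gene lies in the quadrant of its original sign.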

How the data were processed

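The authors sorted CD11b+CD45int cells and deposited a table of FPKM values per gene and library. Per the labels' processing notes the tools were STAR, featureCounts, edgeR and limma on mm10. The labels and the study's methods describe different library protocols for these samples, so priming, read length and strand were not taken as known. Here 24 libraries (6 groups) entered 1 model, limma 3.58.1 (R 4.3.3), of log2(FPKM + 1) with an intensity trend and no covariate, on 12684 of 15285 genes with at least 1 FPKM in 3 libraries. Differences and differences between times were contrasts, and p-values were Benjamini-Hochberg adjusted over all genes tested. On simulated data 77 of 100 genes changed by a log2 value of 1 and 98 of 100 changed by 2 were called, with 11 unchanged genes. The noise was normal and independent, with 1 spread per gene, and the changed genes had a mean log2 value above 2. Libraries that stand apart and genes that vary together were not simulated, so that these counts may not hold for the real libraries. Depth was read from the steps of low values, of which 99.1% of 1855 genes were whole reads within 0.1. Marker sums were compared by exact permutation tests in scipy.

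The genes named are the 15 highest and 15 lowest called genes without overlap at a mean of at least 5 FPKM, up to 4 members of each list with the smallest adjusted p, the 6 largest differences between times in each direction, the study's own list and 8 marker genes, and others are said to be chosen after their values were seen. The members and lists were chosen with earlier results of these data known. The GC content was that of the longest GENCODE vM21 transcript, found for 94.6% of genes. The same-number libraries of the 2 groups at 24 hr correlated in their deviations at -0.004 to 0.135, so the numbers were not taken as pairs. Alternatives were the pseudocount, filter, normalization, samples fitted, weights, block and each library left out, and, added after seeing the data, control replicate 2 of 6 hr left out of the 24 hr comparison. The authors' other tables were not used here. A few genes that the naming rule selects are not reported here.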

Additional observations from a re-analysis of the deposited data

Results flagged for a closer look

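Of 296 groups of 4 libraries examined (148 genes named in the text), 25 held a library far from the other 3 by Dixon's test at the 95% level, where chance gives about 1 in 20, and 11 of the 25 were in control replicate 4. That library was lowest for Junb (85.5 FPKM), Tmem119 (556 FPKM), Ccrl2 (43.5 FPKM), Kcna3 (4.41 FPKM), Pfkfb4 (13.3 FPKM) and Rnu5g (21.2 FPKM), and highest for Cenpk (10.3 FPKM), Dscc1 (12.3 FPKM), Clec4n (35.1 FPKM), Hsp90b1 (919 FPKM) and Clk1 (164 FPKM). Control replicate 1 was highest for Nfkbib (71 FPKM) and control replicate 2 for Cd300lf (82.5 FPKM). WM repopulating replicate 2 was highest for Cd300lf (524 FPKM), Cd14 (2161 FPKM), Lyl1 (129 FPKM), Ccl3 (3394 FPKM) and Cdkn1a (369 FPKM). WM repopulating replicate 1 was highest for Ccl12 (6568 FPKM) and Mrc1 (1.67 FPKM), and replicate 3 for Adgre4 (9.42 FPKM) and Tk1 (5.81 FPKM). WM repopulating replicate 4 was lowest for Apoe (2045 FPKM) and Il1a (641 FPKM) and highest for Lag3 (274 FPKM).

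The difference between WM repopulating and control cells was itself different between times for the following genes (limma interaction, adjusted p under 0.05). Between 24 and 0 hr it was lower at 24 hr for Pole2 (-2.41), Lig1 (-2.18), Gmnn (-2.16), Cenpk (-1.97), Tk1 (-1.93), Stmn1 (-1.56) and Hspd1 (-0.93), and higher for Ier2 (1.44). Between 24 and 6 hr it was lower at 24 hr for Rnu2-10 (-2.94), Rnu12 (-2.65), Hells (-2.32), Slc43a3 (-2.30), Lig1 (-2.25), Clec4n (-2.23), Mcm6 (-1.87), Cenpk (-1.67), Mcm7 (-1.52), Mcm3 (-1.41) and Mcm4 (-1.35), and higher for Ier2 (1.18).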

How the results depend on the processing

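For WM repopulating vs control at 24 hr LPS, the 503 genes called were 200 with a log2 change beyond 1 as well, 255 with only the 24 hr groups fitted, 1401 with library weights and 291 to 438 when each 24 hr library was left out, lowest without WM repopulating replicate 2 (291) or 3 (318). They were 681 without control replicate 2 of 6 hr, an alternative chosen after seeing the data. For the difference at 24 hr minus difference at 0 hr, 11 genes became 6 with a pseudocount of 0.1, 49 with 5, 7 with a filter at 5 FPKM, 17 with only the groups compared, 47 with library weights and 6 to 29 with a library left out. For the difference at 24 hr minus difference at 6 hr, 20 became 9, 50 and 65 with those pseudocounts and with weights, and 10 to 28 with a library left out. For WM repopulating vs control at 0 hr, 154 genes became 99 with a log2 change beyond 1, 100 with a filter at 5 FPKM and 75 to 108 with a library left out, and for WM repopulating vs control at 6 hr 41 genes became 27 (log2 change beyond 1), 16 (only the groups compared), 103 (weights) and 23 to 75. Of 110 called genes named, 49 were lost with only the 24 hr groups and 33 without WM repopulating replicate 2. Of 2804 values of named genes, 2409 kept direction and call, 310 kept direction only, 75 passed newly and 10 reversed, all of them of uncalled genes near 0: C4b (-0.22 to 0.09 with a library left out), Pcna (-0.04 to 0.11) and P2ry12 (-0.05 to 0.30, and -0.02 with quantile normalization), Ctsl (-0.02, quantile) and Myc (-0.01, weights). The choroid plexus difference was 0.0709 as a median of log2 values over its markers. The causes were not tested. At this depth genes under about 1 FPKM were not tested.

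With the replicate number as a block, 359 genes were called at 24 hr, 4 between 24 and 0 hr, 15 between 24 and 6 hr, 67 at 0 hr and 31 at 6 hr. Same-numbered libraries did not deviate together (correlations of 0.0269, 0.119, -0.004 and 0.135), so the numbers were not taken as pairs.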
